A study of Mus musculus with 36 samples.

Results

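Macrophages from MC38 tumours of mice given OMV-SIRP-G were compared with those of mice given OMV-SIRP, across all genes. The comparison used 6 of the 36 RNA-seq libraries of the series, 3 on each side, taken by their columns in the deposited MC38 table. All mice were wild type and bore MC38 tumours, and the RNA came from tumour tissue, with the cells labelled as tumour-associated macrophages (TAM). Another group of 3 MC38 libraries, from mice given phosphate-buffered saline (PBS), entered the estimate of the spread. The labels spell out neither OMV-SIRP nor OMV-SIRP-G, and the sources used here leave out dose, schedule, age and the way the cells were isolated. The design text speaks of 3 samples of a group being pooled. Whether each library holds another mouse is not stated, so the p-values speak to the spread among these libraries alone, and that spread may be technical. The deposited table numbers the OMV-SIRP-G columns from 2 to 4, and no column numbered 1 was analysed here. No gene passed the threshold when any of these 3 libraries was left out. RNA was measured in bulk, so fewer cells of a type and less RNA per cell cannot be told apart.

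Outer membrane vesicles (OMV) are particles shed by Gram-negative bacteria, and they carry ligands of Toll-like receptors. SIRP-alpha, encoded by Sirpa, is the macrophage receptor that reads CD47 on other cells as a signal against phagocytosis, and blocking the pair is studied as a way to let macrophages eat tumour cells. TAM are known for a range of states, from inflammatory cells that present antigen to tissue-like cells that clear debris and remodel matrix. The MC38 line comes from a mouse colon carcinoma.

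Reads assigned to genes numbered 15237914 to 16172684 in the 6 compared libraries, and in the 3 PBS libraries 13491025 to 16737363. Replicates were uneven: log2(FPKM + 1) values correlated across genes at 0.942 to 0.950 within OMV-SIRP-G, 0.817 to 0.925 within OMV-SIRP and 0.810 to 0.886 within PBS. FPKM counts fragments per gene relative to gene length and library depth. The median standard deviation of a gene was 0.184 on the log2 scale in OMV-SIRP-G, 0.434 in OMV-SIRP and 0.397 in PBS. OMV-SIRP replicate 2 stood apart with 12818 genes with a read, against 20054 and 21580 in the other OMV-SIRP libraries, and PBS replicate 3 stood apart with 13470. Macrophage genes were present on both sides. The sum of 14 macrophage identity markers was 4726, 5952 and 1900 FPKM after OMV-SIRP and 3616, 3356 and 3441 FPKM after OMV-SIRP-G, but only 324.7, 406.5 and 647.8 FPKM after PBS. Of the 13 identity markers tested, none passed the threshold between the treatments, and Csf1r, the receptor for the macrophage growth factor, read 84.8, 109 and 42.7 FPKM after OMV-SIRP and 83.3, 75.2 and 75.9 FPKM after OMV-SIRP-G.

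Of 14089 genes tested, 54 passed an adjusted p of 0.05 in limma, which is 0.383% of them. After OMV-SIRP-G 21 genes were higher (0.149% of those tested) and 33 were lower (0.234%). Of the 21 higher genes 11, all under 1 FPKM in each OMV-SIRP and PBS library, entered the test only through the OMV-SIRP-G libraries, so their count shows little by itself, and the other 10 did not. The higher genes included transcription factors of immune activation (Irf1, Nr4a2, Nr4a3, Bhlhe40), Fscn1, a gene of mature dendritic cells, and Mfge8. The lower genes included the receptor Axl and its ligand Gas6, the matrix genes Sparc and Dcn, 9 genes encoded by the mitochondrial genome (7 for proteins and 2 for tRNAs) and 6 ribosomal protein genes. The count rested on few libraries. It was 11, 162 and 189 without OMV-SIRP replicate 1, 2 and 3, 37, 38 and 74 without PBS replicate 1, 2 and 3, and 0 without any 1 of the OMV-SIRP-G libraries, where limma left 978, 1006 and 989 genes at an unadjusted p under 0.05. Without OMV-SIRP replicate 2 and PBS replicate 3 together, 644 genes passed (319 higher, 325 lower), all 54 among them. This pair was chosen after the data were seen, so the counts given below without it are description only. Giving each library the same FPKM total moved the median of all genes from 0.05 to 0.41 on the log2 scale and the split to 202 higher and 21 lower.

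Gene positions are those of the deposited table, on GRCm38. Among the transcription factors, Irf1 (chr11:53770014-53778374) activates genes downstream of interferons. It read 24.2, 14.6 and 23.2 FPKM after OMV-SIRP, 57.7, 55.9 and 62.2 FPKM after OMV-SIRP-G and 12.96 to 15.05 FPKM after PBS. The log2 difference between the treatments was 1.49 ± 0.20 (SE, limma adjusted p = 0.0234), and the lowest OMV-SIRP-G library lay far above the highest OMV-SIRP library. Other interferon genes moved less. Of 16 listed interferon-gamma response genes only Irf1 rose, where 0.149% of all genes did, 11 had overlapping groups and the median was 0.23. Of 20 interferon-stimulated genes none passed, 16 had overlapping groups and 9 had a negative difference. Their median was 0.08 on the log2 scale, against 0.05 over all genes. Nr4a3 and Nr4a2 are orphan nuclear receptors induced soon after stimulation in immune cells. Nr4a3 (chr4:48045153-48086447) stood at 5.32, 7.07 and 10.8 FPKM after OMV-SIRP and at 35.1, 30.97 and 31.6 FPKM after OMV-SIRP-G, a log2 difference of 1.99 ± 0.31 (SE, limma adjusted p = 0.0397). Nr4a2 (chr2:57106830-57124003) stood at 7.74, 8.24 and 11.5 FPKM and at 26.6, 25.1 and 22.8 FPKM (1.36 ± 0.19, SE, limma adjusted p = 0.0252). Both receptors were thus higher in each OMV-SIRP-G library than in each OMV-SIRP library. Bhlhe40 (chr6:108660629-108666925), a repressor that shapes cytokine output and self-renewal of macrophages, read 59.3, 80.7 and 79.4 FPKM against 138.4, 139.98 and 142.5 FPKM (0.94 ± 0.16, SE, limma adjusted p = 0.0489).

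The sequence before the start is given for Nr4a3, Nr4a2, Fscn1 and Irf1, the higher genes in whose windows a motif named below was found. Sequences are RefSeq windows on GRCm38.p6 written in the gene's direction, and each stops at the base before the gene's start in the deposited table. Of the 11 protein-coding genes that rose, 8 had a window, and windows without a match are not shown. In the first 3 windows capitals mark TGACG on either strand, one arm of the cyclic AMP response element TGACGTCA, in which 2 copies overlap. In the window of Irf1 they mark TTCNNNGAA, the form of the interferon-gamma activated site.
Nr4a3 (chr4:48045055-48045152, plus strand): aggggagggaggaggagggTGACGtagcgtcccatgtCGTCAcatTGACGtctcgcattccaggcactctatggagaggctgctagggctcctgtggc
Nr4a2 (chr2:57124004-57124253, minus strand): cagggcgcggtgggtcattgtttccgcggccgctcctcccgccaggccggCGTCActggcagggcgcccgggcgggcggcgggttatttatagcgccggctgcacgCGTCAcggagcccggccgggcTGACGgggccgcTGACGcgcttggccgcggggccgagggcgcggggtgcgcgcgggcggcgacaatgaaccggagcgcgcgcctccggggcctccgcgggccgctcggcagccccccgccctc
Fscn1 (chr5:142960105-142960342, plus strand): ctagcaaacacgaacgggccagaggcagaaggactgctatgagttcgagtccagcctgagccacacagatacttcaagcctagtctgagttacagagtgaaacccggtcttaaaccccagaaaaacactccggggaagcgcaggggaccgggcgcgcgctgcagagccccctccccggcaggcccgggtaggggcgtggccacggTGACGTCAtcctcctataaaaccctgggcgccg
Irf1 (chr11:53769764-53770013, plus strand): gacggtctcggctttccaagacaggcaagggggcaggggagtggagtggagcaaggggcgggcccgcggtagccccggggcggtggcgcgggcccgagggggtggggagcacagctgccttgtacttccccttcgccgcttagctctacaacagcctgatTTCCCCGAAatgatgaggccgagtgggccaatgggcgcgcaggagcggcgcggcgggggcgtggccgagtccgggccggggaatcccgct

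The element arm TGACG occurred 3 times in the 98 bases shown before Nr4a3 and 4 times in the 250 before Nr4a2. In the 238 bases before Fscn1 it occurred 2 times, as the arms of 1 TGACGTCA. In full windows of 250 bases it was found in no other of the 8 matched genes. Over all 32851 RefSeq windows of 250 bases, 17.8% held it on either strand, 1.55% held the whole TGACGTCA and 7.02% held TTCNNNGAA. The last was found before Irf1 alone among the 8 genes. A match describes these letters and shows no binding.

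Fscn1 (chr5:142960343-142973185) encodes fascin, which bundles actin in the long processes of mature dendritic cells. It read 81.2, 89.6 and 184 FPKM after OMV-SIRP, 391, 379.6 and 403 FPKM after OMV-SIRP-G and 39.0 to 63.1 FPKM after PBS (treatment difference 1.82 ± 0.30 on the log2 scale, SE, limma adjusted p = 0.0438). OMV-SIRP replicate 3 was the highest of its group and still below the lowest OMV-SIRP-G library. Cd207 (chr6:83671215-83677857) encodes langerin, the lectin of Langerhans cells and of a subset of dendritic cells. It had no read in OMV-SIRP replicates 1 and 2 and 6 reads in replicate 3, against 189, 235 and 300 reads in the OMV-SIRP-G libraries and none after PBS. It passed the filter on low values only through the group where it was high, so its call is no more than a description. Mfge8 (chr7:79133768-79149060), a secreted bridge that lets phagocytes grip dying cells, read 24.2, 9.47 and 25.4 FPKM after OMV-SIRP and 84.5, 77.2 and 74.8 FPKM after OMV-SIRP-G (2.06 ± 0.33 on the log2 scale, SE, limma adjusted p = 0.0427). The PBS libraries read 14.2 to 21.7 FPKM of Mfge8, level with OMV-SIRP.

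The other protein-coding genes that rose were Il21r, the receptor for interleukin 21, Lsp1, an actin-binding protein of leukocytes, Syngr2, a vesicle membrane protein, and Gramd3. Il21r read 11.7, 16.3 and 11.8 FPKM against 34.8, 30.3 and 28.8 FPKM (1.19 ± 0.20 on the log2 scale, SE, limma adjusted p = 0.0489). Lsp1 read 62.2, 71.8 and 65.6 FPKM against 143, 134 and 139.8 FPKM, a log2 difference of 1.05 ± 0.15. In PBS these 2 genes were lower still, at 4.45 to 6.21 FPKM and 19.1 to 25.1 FPKM. Syngr2 differed by 1.12 ± 0.17 and Gramd3 by 1.45 ± 0.24 on the log2 scale. The next genes by the moderated statistic, both short of the threshold, were Tnfaip3, the A20 brake on NF-kB signalling (1.27 ± 0.22, limma adjusted p = 0.0570), and Slamf7, a receptor of activated leukocytes (1.24 ± 0.22, limma adjusted p = 0.0576).

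**Figure D1:**
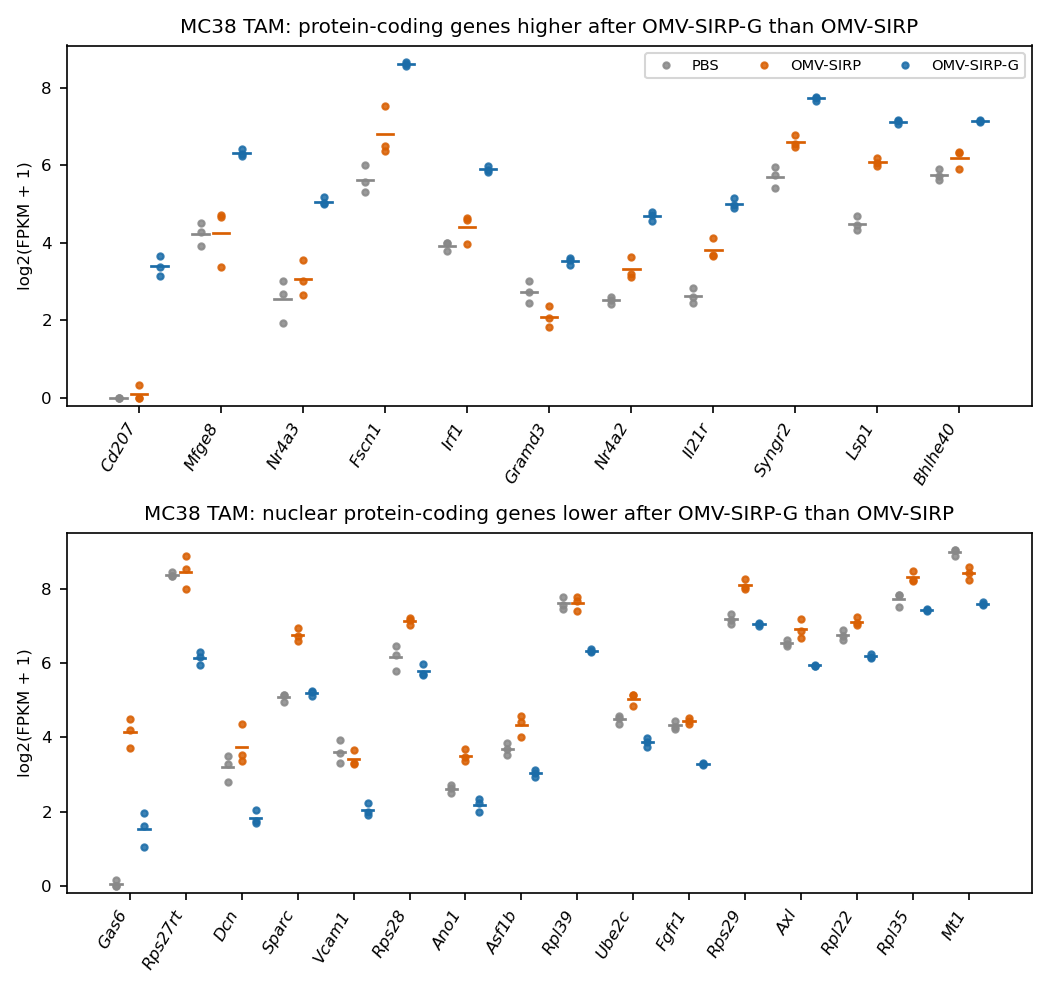
Level of each protein-coding nuclear gene past the threshold as log2(FPKM + 1), in the 3 PBS (grey), 3 OMV-SIRP (orange) and 3 OMV-SIRP-G (blue) libraries of MC38 TAM, with bars at the group means. Irf1 sits at 55.9 to 62.2 FPKM in the OMV-SIRP-G libraries and at 14.6 to 24.2 FPKM in the OMV-SIRP libraries, and Sparc at 33.9 to 36.9 FPKM and 96.4 to 121 FPKM.

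Of the 21 higher calls, 9 were listed at 0 in all 3 OMV-SIRP and all 3 PBS libraries. They were mt-Tl2, a mitochondrial leucine tRNA, 4 microRNA genes (Mir132, Mir199a-1, Mir1938 and Mir3109), the T cell receptor segment Trbj1-1, the small nucleolar RNA Gm25776, the long noncoding RNA Gm20511 and the pseudogene Gm5224. They rest on 6 to 90 reads in an OMV-SIRP-G library. Such a pattern was more frequent in OMV-SIRP-G than elsewhere. With at least 5 reads in each library of 1 group and none in the other 6, there were 72 genes for OMV-SIRP-G, 8 for OMV-SIRP and 10 for PBS. Its part in these calls was not tested.

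Among the genes that fell, Gas6 (chr8:13465374-13494490) is the bridging ligand that links dying cells to the receptor kinases Axl, Tyro3 and Mertk. It read 21.4, 12.2 and 17.4 FPKM after OMV-SIRP and 2.86, 2.06 and 1.07 FPKM after OMV-SIRP-G, a log2 difference of -2.60 ± 0.33 (SE, limma adjusted p = 0.0199). Axl (chr7:25757273-25788705) read 144, 102 and 116 FPKM against 59.9, 61.1 and 59.9 FPKM (-0.97 ± 0.15, SE, limma adjusted p = 0.0346). Ligand and receptor were thus each lower in every OMV-SIRP-G library than in any OMV-SIRP library. Against PBS they differed in order: Gas6 was at 0 in 2 PBS libraries and at 0.123 FPKM in the other, below both treatments, while Axl read 86.9 to 98.4 FPKM, between them. Mertk, another receptor of the family and one of the identity markers, read 6.29, 20.1 and 3.03 FPKM against 6.85, 6.28 and 5.74 FPKM, with groups that overlapped.

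Sparc and Dcn encode an extracellular matrix glycoprotein and the proteoglycan decorin. Sparc (chr11:55394500-55423183) read 121, 96.4 and 104.5 FPKM after OMV-SIRP, 36.5, 33.9 and 36.9 FPKM after OMV-SIRP-G and 29.8 to 34.6 FPKM after PBS (treatment difference -1.55 ± 0.15 on the log2 scale, SE, limma adjusted p = 0.00363). Dcn (chr10:97479609-97518143) read 19.5, 10.5 and 9.32 FPKM against 2.25, 3.12 and 2.35 FPKM (-1.92 ± 0.31, SE, limma adjusted p = 0.0414). Both belong to a list of 15 fibroblast genes, of which 11 were tested, 2 fell, where 0.234% of all genes did, and 10 had a negative difference. The median over the 11 was -1.06 on the log2 scale, against 0.05 over all genes. Col1a1, the main fibrillar collagen chain, missed the threshold at 8.62, 8.44 and 5.75 FPKM against 1.21, 1.32 and 1.63 FPKM (limma adjusted p = 0.0543). The summed level of the list ran from 208 to 350.6 FPKM after OMV-SIRP and from 148.1 to 163.5 FPKM after OMV-SIRP-G, with Fap at 0 in the latter. With OMV-SIRP replicate 2 and PBS replicate 3 left out, 7 of 10 tested members fell, where 2.39% of all genes did: Sparc, Col6a1, Col3a1, Dcn, Col1a2, Col1a1 and Pdgfrb. That pair was picked after the data were seen.

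The remaining nuclear genes that fell had varied roles. Vcam1 (chr3:116109949-116129688), an adhesion molecule for leukocytes, read 11.6, 8.82 and 8.70 FPKM against 2.96, 2.72 and 3.67 FPKM (-1.37 ± 0.23 on the log2 scale, SE, limma adjusted p = 0.0489), with PBS at 8.99 to 14.1 FPKM beside OMV-SIRP. Fgfr1, a fibroblast growth factor receptor, differed by -1.16 ± 0.15 and the chloride channel Ano1 by -1.31 ± 0.21. Ube2c and Asf1b serve mitosis and chromatin assembly in dividing cells, and differed by -1.18 ± 0.16 and -1.31 ± 0.20. Mt1, a metallothionein that binds zinc and copper, read 344, 385 and 301 FPKM against 194, 198 and 189 FPKM and 476 to 531 FPKM after PBS. The long noncoding RNA Fendrr and 1 unannotated model fell as well.

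The mitochondrial genome encodes core subunits of the respiratory chain, and 12 of these genes were listed. All 12 had a negative difference, 11 had groups that did not overlap, and 7 fell, where 0.234% of all genes did: mt-Co1, mt-Co2, mt-Cytb, mt-Nd1, mt-Nd2, mt-Nd3 and mt-Nd4. Over all genes tested 22.5% had groups that did not overlap, 10.1% in the lower direction. mt-Co1, the catalytic subunit of cytochrome oxidase and the most abundant gene in these libraries, read 98595, 85716 and 61531 FPKM after OMV-SIRP and 22210, 22474 and 21062 FPKM after OMV-SIRP-G, a log2 difference of -1.88 ± 0.20 (SE, limma adjusted p = 0.00899). The PBS libraries read 5118 to 8270 FPKM, below both. mt-Cytb read 23860, 30650 and 14535 FPKM against 6322, 6391 and 5940 FPKM (-1.82 ± 0.28, SE, limma adjusted p = 0.0341). The tRNA genes mt-Tc and mt-Tp, outside the list, fell by 2.89 and 1.49 on the log2 scale (limma adjusted p = 0.0234 and 0.0411). The tRNA gene mt-Tl2 went the other way, higher by 6.13, and entered the test only through the OMV-SIRP-G libraries. The median over the 12 was -1.71 on the log2 scale. It was -1.03 after quantile normalization, which places mt-Co1 level in every library, and -1.26 with the same FPKM total in each library, so the median stayed negative under both scalings. After quantile normalization, however, mt-Co1, mt-Cytb, mt-Nd1, mt-Nd2 and mt-Nd4 did not pass, and mt-Cytb differed by only -0.07 on the log2 scale (limma adjusted p = 0.812).

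The mitochondrial genome took 21.5%, 20.7% and 15.2% of the reads after OMV-SIRP, 6.33%, 6.46% and 6.06% after OMV-SIRP-G and 3.46%, 2.98% and 5.07% after PBS. The 3 OMV-SIRP libraries were all above the other 6. Nuclear genes of the respiratory chain did not follow to that extent: of 15 tested none passed (limma, lowest adjusted p = 0.331), 12 had a negative difference and the median was -0.18 on the log2 scale. With mitochondrial genes left out and FPKM taken per nuclear read, 32 genes passed (13 higher, 19 lower), all 32 among the 44 that could still be tested. The 12 that lost their call kept their direction, at limma adjusted p = 0.0528 to 0.0787, and were Fscn1, Nr4a3, Mfge8, Bhlhe40, Il21r, Syngr2, Gramd3, Axl, Dcn, Vcam1, Ano1 and Fendrr. The share of mitochondrial reads moved with the groups, and its part in the other differences was not tested.

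**Figure D2:**
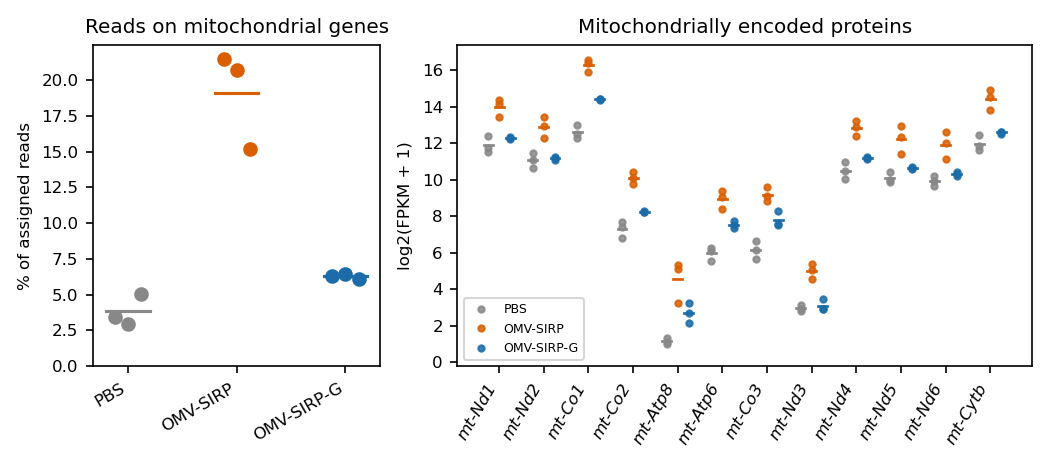
Left, percent of assigned reads on mitochondrial genes in each MC38 TAM library, with bars at the group means; right, log2(FPKM + 1) of the mitochondrially encoded protein genes in genome order, in PBS (grey), OMV-SIRP (orange) and OMV-SIRP-G (blue). The OMV-SIRP libraries hold 15.2% to 21.5% and the OMV-SIRP-G libraries 6.06% to 6.46%.

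The 6 ribosomal protein genes that fell were Rps27rt, Rpl39, Rps28, Rps29, Rpl22 and Rpl35. Rps27rt (chr9:114982366-114982739) read 471, 369.7 and 253 FPKM after OMV-SIRP, 78.2, 60.7 and 70.2 FPKM after OMV-SIRP-G and 325 to 349 FPKM after PBS, a log2 difference of -2.33 ± 0.21 (SE, limma adjusted p = 0.00363). It is a copy of Rps27, and 91.6% of the 31-base stretches of its transcript also occur in Rps27, which differed by -0.56 ± 0.21 (limma adjusted p = 0.342). How reads were divided between such copies is not given in the sources used here, so the value of Rps27rt is uncertain. A list of 16 other ribosomal protein genes had none past the threshold (limma, lowest adjusted p = 0.219), with 16 negative differences and a median of -0.26 on the log2 scale. The sign depended on the scaling. After quantile normalization 6 of 16 were positive, where the median of all genes was -0.004 on the log2 scale. With the same FPKM total in each library 14 of 16 were positive, but the median of all genes was then 0.41. A positive sign there is thus not a rise relative to all genes. Of the 6 that fell, Rps28, Rps29, Rpl22 and Rpl35 did not pass with the same FPKM total (limma adjusted p = 0.0648, 0.0903, 0.121 and 0.147), nor did Axl, Vcam1, Fgfr1, Ube2c, Ano1, Mt1, Fendrr and Gm4332.

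The pseudogenes among the lower calls are copies too. Of the 31-base stretches of Gm28661 and Gm10925, 100% occur in mt-Co2 and mt-Atp6. For Gm29216 97.2% occur in mt-Co1, and for Gm13340 45.2%. Gm4332 shares 90.2% with Rps20, and Gm45855 shares 70.9% with the copy Rps2-ps10. In reverse, 100% of mt-Co2, 98.1% of mt-Nd3, 63.9% of mt-Co1 and 62.8% of mt-Nd4 occur in other genes, against 0% of mt-Nd1 and 6.55% of mt-Cytb. Rpl35 shares 60.7% with its neighbour Wdr38 and Ube2c 17.7% with Tnnc2. Values of genes with such shared stretches are uncertain.

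Of 13 listed dendritic cell genes, 10 were tested, 9 had groups that did not overlap in the higher direction, where 12.4% of all genes did, and 1, Fscn1, rose, where 0.149% of all genes did. The median over the 10 was 1.52 on the log2 scale. Ccr7, the receptor that brings dendritic cells to lymph nodes, read 37.4, 72.7 and 462 FPKM after OMV-SIRP and 685, 646 and 727 FPKM after OMV-SIRP-G (2.65 ± 0.73 on the log2 scale, SE, limma adjusted p = 0.202). Ccl22, a chemokine of mature dendritic cells, read 32.3, 34.5 and 222 FPKM against 334.5, 359 and 372.5 FPKM (2.47 ± 0.64, SE, limma adjusted p = 0.173). In both, OMV-SIRP replicate 3 lay much closer to the OMV-SIRP-G libraries than its 2 companions did. The same library had the highest sum of the list in its group, 909.9 FPKM against 166.9 and 242.4 FPKM, with 1465 to 1589 FPKM after OMV-SIRP-G. Flt3, the growth factor receptor of the lineage, read 1.08, 4.82 and 7.36 FPKM against 13.6, 16.9 and 13.2 FPKM (limma adjusted p = 0.206). Without OMV-SIRP replicate 2 and PBS replicate 3, a pair picked after the data were seen, 2 of 10 rose, Fscn1 and Itgae, where 2.35% of all genes did.

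Of 16 genes of inflammatory activation, 16 had a positive difference, 13 had groups that did not overlap in the higher direction (12.4% of all genes), and none passed the threshold (limma, lowest adjusted p = 0.142). The median over the 16 was 1.27 on the log2 scale. Cd86, a costimulatory ligand for T cells, read 13.1, 18.7 and 37.3 FPKM after OMV-SIRP and 49.8, 57.8 and 58.7 FPKM after OMV-SIRP-G (1.35 ± 0.32, SE, limma adjusted p = 0.142). Il1b, the inflammasome cytokine, read 49.6, 79.95 and 122 FPKM against 206.5, 235 and 209 FPKM (1.45 ± 0.36, SE, limma adjusted p = 0.154), while PBS read 220.5 to 525 FPKM. So Il1b was lowest after OMV-SIRP, and the same order held for the group means of Il1a, Il6 and Ptgs2. Tnf read 6.78, 35.7 and 17.7 FPKM against 51.3, 49.1 and 59.8 FPKM (1.64 ± 0.64, SE, limma adjusted p = 0.360). Without OMV-SIRP replicate 2 and PBS replicate 3, Irf5 and Acod1 passed, 2 of 16 members, against 2.35% of all genes in the higher direction.

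**Figure D3:**
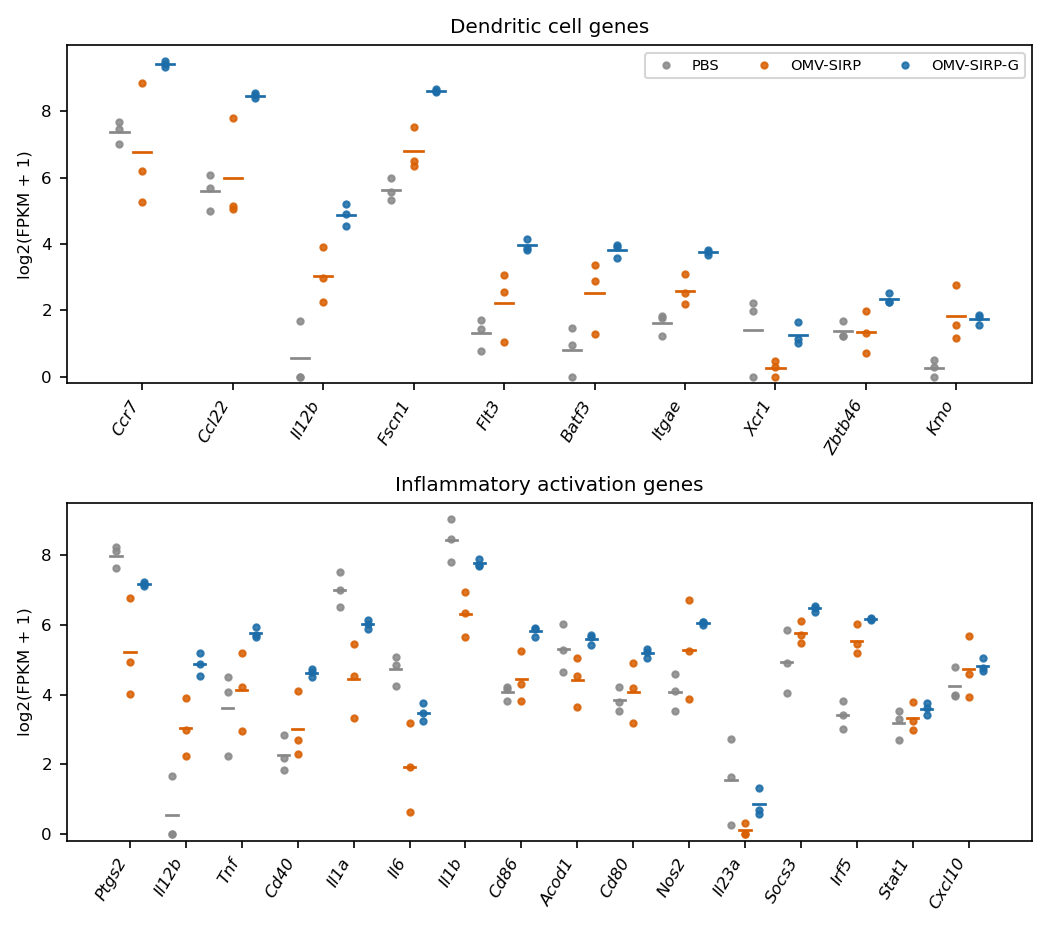
Levels as log2(FPKM + 1) of the tested dendritic cell genes (top) and inflammatory activation genes (bottom) in the PBS (grey), OMV-SIRP (orange) and OMV-SIRP-G (blue) libraries of MC38 TAM, with bars at the group means. The blue points lie close together and the orange points spread widely, as for Ccr7 at 37.4 to 462 FPKM after OMV-SIRP and 646 to 727 FPKM after OMV-SIRP-G.

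Genes of NF-kB and Toll-like receptor signalling and of MHC class I presentation had smaller median differences. Of 18 signalling genes 9 had groups that did not overlap in the higher direction (12.4% of all genes), none passed (limma, lowest adjusted p = 0.0570), and the median was 0.57 on the log2 scale. The NF-kB subunits and inhibitors Relb (1.41 ± 0.29) and Nfkbia (0.75 ± 0.18) had the lowest adjusted p after Tnfaip3, whereas the receptors Tlr2 and Tlr4 differed by 0.03 ± 0.38 and -0.08 ± 0.39. Of 13 class I genes 7 had groups that did not overlap in that direction, none passed (limma, lowest adjusted p = 0.152), and the median was 0.50. Tap2, a peptide transporter, read 18.3, 28.2 and 26.4 FPKM against 42.6, 45.8 and 45.6 FPKM. Leaving out OMV-SIRP replicate 2 and PBS replicate 3, 5 of the 13 rose, where 2.35% of all genes did: Tapbp, H2-T23, Tap1, Tap2 and Nlrc5. With the same FPKM total in each library 6 of 13 rose, under a scaling that called 1.43% of all genes higher and 0.149% lower.

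Most lymphocyte markers had positive differences, and none passed the test. Of 15 T cell genes 15 had a positive difference, 13 had groups that did not overlap in the higher direction (12.4% of all genes), none passed (limma, lowest adjusted p = 0.0769), and the median was 0.86 on the log2 scale. Cd2, an adhesion receptor of T and NK cells, read 18.4, 18.4 and 18.5 FPKM after OMV-SIRP and 56.5, 45.2 and 53.7 FPKM after OMV-SIRP-G. The summed T cell level was 238.8 to 286.5 FPKM after OMV-SIRP, 410.9 to 438.1 FPKM after OMV-SIRP-G and 153.5 to 287.4 FPKM after PBS, and none of the 15 was at 0 on either treated side. Of 14 cytotoxic and NK genes 14 had a positive difference with a median of 0.89, 6 had groups that did not overlap in the higher direction, and none passed (limma, lowest adjusted p = 0.131). Their sums overlapped, at 447.8 to 1397 FPKM and 1220 to 1324 FPKM. Of 8 tested B and plasma cell genes 7 had a positive difference, 7 had overlapping groups and none passed. The sums of that list overlapped too, at 27.3 to 125.2 FPKM and 88.4 to 102.7 FPKM. Without OMV-SIRP replicate 2 and PBS replicate 3, 4 T cell genes (Cd2, Lck, Icos and Cd28) and 6 cytotoxic genes passed, where 2.35% of all genes did in the higher direction. The summed T cell, dendritic and inflammatory levels were each higher in the 3 OMV-SIRP-G libraries than in the 3 OMV-SIRP libraries, which restates the comparison of the treatments. Within OMV-SIRP, replicate 3 had the highest dendritic sum, 909.9 FPKM, but a T cell sum of 240.6 FPKM, against 238.8 and 286.5 FPKM. The part of T cell RNA in the other differences was not tested.

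Of 15 tissue macrophage genes 13 had a negative difference, 7 had groups that did not overlap in the lower direction (10.1% of all genes), 1, Gas6, fell (0.234% of all genes), and the median was -0.58 on the log2 scale. C1qa, a chain of the first complement component, read 486, 474 and 393 FPKM after OMV-SIRP and 303, 304 and 283 FPKM after OMV-SIRP-G (limma adjusted p = 0.590). Apoe, a lipid carrier made by tissue macrophages, read 433, 471 and 406 FPKM against 270.5, 247 and 263 FPKM (limma adjusted p = 0.675). Both groups lay far above PBS, at 4.46 to 17.2 FPKM of C1qa and 7.73 to 54.9 FPKM of Apoe. For both genes the treated groups did not overlap. The uneven PBS libraries entered the spread behind these p-values, so a high p-value here does not show that the treatments were alike. In contrast Maf and Trem2 differed by 0.07 ± 0.32 and 0.08 ± 0.33. With the same FPKM total in each library the list median was -0.13, with 6 of 15 positive, against a median of 0.41 over all genes. Without OMV-SIRP replicate 2 and PBS replicate 3 the list median was -0.34. There 1 of 15, Gas6, fell, where 2.39% of all genes did.

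Of 18 cell cycle genes 18 had a negative difference, 11 had groups that did not overlap in the lower direction (10.1% of all genes), none passed (limma, lowest adjusted p = 0.0862), and the median was -0.71 on the log2 scale. Ccna2, the cyclin of S phase, read 23.7, 17.1 and 21.8 FPKM against 10.9, 9.70 and 11.0 FPKM, and 17.1 to 19.3 FPKM after PBS. With the same FPKM total in each library 3 of the 18 were positive, where the median of all genes was 0.41. In the absence of OMV-SIRP replicate 2 and PBS replicate 3, 6 of 18 fell, where 2.39% of all genes did: Mcm6, Mcm5, Top2a, Ccna2, Aurkb and Bub1.

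**Figure D4:**
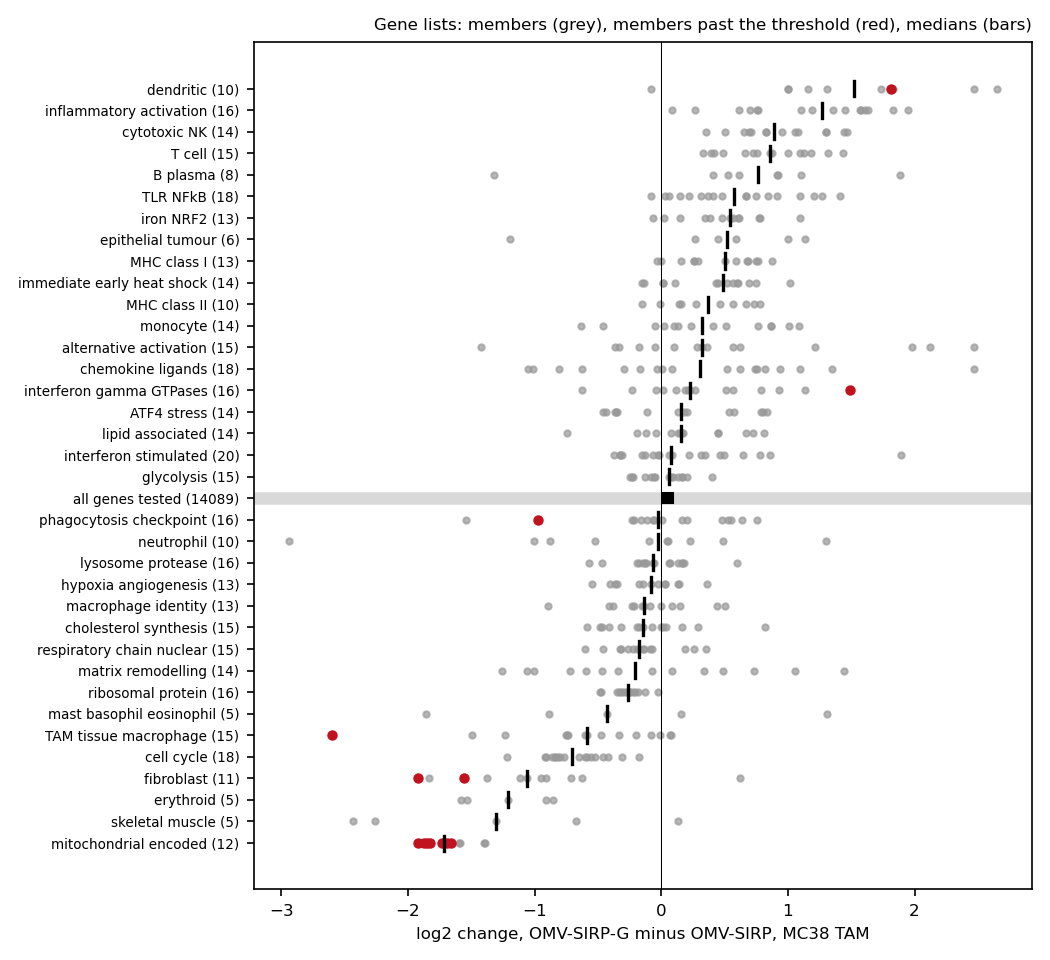
Log2 change of each tested member of the gene lists with at least 5 tested members (points; red where past the threshold), the list median (bar) and the median of all genes (square), OMV-SIRP-G minus OMV-SIRP in MC38 TAM. Dendritic genes lie highest with a median of 1.52 and mitochondrially encoded genes lowest with -1.71, while all genes have a median of 0.05.

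Markers of other cells were low or uneven. The sum of 8 red cell genes was 4342, 10680 and 3586 FPKM after OMV-SIRP and 2834, 2712 and 2964 FPKM after OMV-SIRP-G. Skeletal muscle genes summed to 21.0, 190.0 and 12.4 FPKM against 5.8, 13.7 and 8.3 FPKM, so OMV-SIRP replicate 2 stood out in both. Neutrophil genes summed to 43.8 to 187.7 FPKM and 40.2 to 60.2 FPKM, with Camp, Elane and Ly6g at 0 on both sides. Epithelial genes summed to 16.8 to 58.5 FPKM and 40.1 to 48.2 FPKM, with Cdx1, Cdx2 and Krt20 at 0 on both sides.

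A set of 16 genes of TAM state and of the SIRP-alpha and CD47 pair was followed whatever its values, and none passed (limma, lowest adjusted p = 0.142, Cd86). Sirpa read 64.5, 95.1 and 41.1 FPKM after OMV-SIRP, 72.5, 78.2 and 68.2 FPKM after OMV-SIRP-G and 10.2 to 22.2 FPKM after PBS (0.20 ± 0.33 on the log2 scale between treatments, SE, limma adjusted p = 0.883). Cd47 read 33.7, 36.9 and 30.4 FPKM against 49.4, 50.8 and 41.8 FPKM (0.48 ± 0.15, SE, limma adjusted p = 0.247), so that its groups did not overlap. Arg1, the arginine-degrading enzyme of suppressive macrophages, read 951, 1401 and 294 FPKM against 1117, 1091 and 1046 FPKM (limma adjusted p = 0.770). Nos2, which makes nitric oxide from the same substrate, read 37.0, 105 and 13.8 FPKM against 66.3, 66.8 and 62.6 FPKM (limma adjusted p = 0.705). Both enzymes had overlapping groups, with OMV-SIRP libraries on either side of the OMV-SIRP-G libraries. Cd274, which encodes PD-L1, read 23.5, 55.0 and 35.9 FPKM against 75.6, 80.4 and 84.3 FPKM (1.13 ± 0.28, SE, limma adjusted p = 0.160). Ccl2 differed by 0.01 ± 0.28, Cd74 by 0.14 ± 0.33, Mrc1 by -0.33 ± 0.34, Vegfa by -0.17 ± 0.14, Spp1 by 0.73 ± 0.48 and Isg15 by 1.89 ± 0.72.

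The 2 comparisons with PBS share libraries with the comparison above and with each other, so they add no separate evidence, and the values are given only side by side. Of the 14089 genes tested, 10.9% passed between OMV-SIRP and PBS (7.4% higher, 3.49% lower) and 19.9% between OMV-SIRP-G and PBS (13.1% higher, 6.86% lower), in limma. Of 13 macrophage identity markers tested, 12 were higher than in PBS after OMV-SIRP and 13 after OMV-SIRP-G. Their medians were 3.1 and 3.3 on the log2 scale. More macrophage RNA in the treated libraries and a change within cells thus cannot be told apart in the differences from PBS. Irf1 differed from PBS by 0.47 ± 0.20 on the log2 scale after OMV-SIRP (SE, limma adjusted p = 0.163) and by 1.96 ± 0.20 after OMV-SIRP-G (limma adjusted p = 0.000597). Mfge8 differed by 0.02 ± 0.33 (limma adjusted p = 0.976) and 2.08 ± 0.33 (limma adjusted p = 0.00376). Lsp1 was above PBS after both, by 1.58 ± 0.15 and 2.63 ± 0.15. Among the genes that were lower after OMV-SIRP-G than after OMV-SIRP the pattern against PBS varied. Sparc differed from PBS by 1.67 ± 0.15 after OMV-SIRP (limma adjusted p = 0.000423) and by 0.12 ± 0.15 after OMV-SIRP-G (limma adjusted p = 0.611). Vcam1 differed by -0.20 ± 0.23 (limma adjusted p = 0.613) and -1.57 ± 0.23 (limma adjusted p = 0.00253). Gas6 was above PBS after both treatments, with PBS at or near 0.

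The same 2 treatments were compared in TAM of mice with B16-F10 melanoma, in other libraries and a separately scaled table, where 1502 of 12542 genes passed (12% of those tested), 6.35% higher and 5.62% lower. Of the 54 MC38 calls 44 were tested there and 14 passed, 7 in the same direction and 7 in the opposite one. The 7 in the same direction were all lower, and are 13% of the MC38 calls and 0.466% of the B16 calls. They were Sparc (-1.09 ± 0.10 on the log2 scale in B16), Mt1 (-0.48 ± 0.11) and the mitochondrial genes mt-Co1, mt-Cytb, mt-Nd1, mt-Nd2 and mt-Nd4. The 7 that went the other way were Gas6, Axl and Vcam1, which rose in B16, and Lsp1, Syngr2, Nr4a3 and Fscn1, which fell. In B16 Fscn1 read 169.5 ± 1.75 FPKM (SD, n = 3) after OMV-SIRP and 66.5 ± 5.97 FPKM (SD, n = 3) after OMV-SIRP-G. The tRNA gene mt-Tl2, at 0 FPKM after OMV-SIRP in MC38, read 163 ± 76.3 FPKM and 95.3 ± 3.59 FPKM in B16 (SD, n = 3), with groups that overlapped. No test was made of the difference between the tumours.

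**Figure D5:**
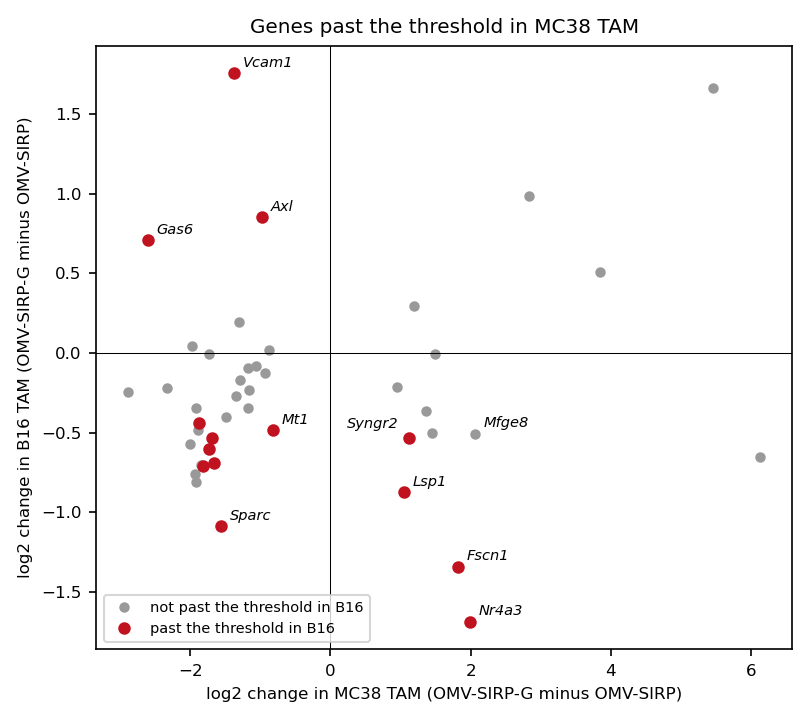
Log2 change, OMV-SIRP-G minus OMV-SIRP, of the 44 genes past the threshold in MC38 TAM that were also tested in B16 TAM (horizontal axis MC38, vertical axis B16; red where past the threshold in B16). Sparc and Mt1 lie below 0 on both axes, and Gas6, Axl, Vcam1, Fscn1, Nr4a3, Lsp1 and Syngr2 lie on opposite sides of 0.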

How the data were processed

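FPKM per gene was deposited by the authors, in a table of 57252 gene models for the 9 MC38 libraries and another for B16-F10. Per the submitters' processing notes, the build was GRCm38 and the tools were HISAT2 2.0.5, StringTie and featureCounts 1.5.0-p3; the sources used here give neither their settings nor strand. Per the labels' protocols, TRIzol RNA went into NEBNext messenger RNA libraries. FPKM multiplied by gene length gave whole reads for 99.992% of values above 0 (tolerance 0.05 reads), and showed a median-of-ratios scaling between libraries. Depth sets counting error only.

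Expression was tested on log2(FPKM + 1), which understates changes of low genes, with limma 3.58.1 (R 4.3.3, statmod 1.5.0; trend and robust) in a fit of all 9 libraries, for genes at 1 FPKM or more in at least 3, with Benjamini-Hochberg adjustment over all genes tested and a threshold of 0.05. The code was tested on simulated data. Lists are described by counts and medians, without a set test. Text names up to 12 protein-coding genes a direction by log2 change (past the threshold, mean FPKM of at least 5, no overlap), filled by the moderated statistic, up to 3 a list by adjusted p, and 16 followed genes; other calls, lists, list members and the sequences shown were picked after their values were seen. Members and lists were chosen with earlier results of these data known. Alternatives were other pseudocounts, filters, scalings and models, limma voom on recovered reads, and leaving out libraries.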

Additional observations from a re-analysis of the deposited data

Results flagged for a closer look

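Of the genes past the threshold in MC38 TAM, 8 had OMV-SIRP-G and OMV-SIRP libraries that did not overlap in MC38 and that did not overlap in the opposite direction in B16 TAM. Lower in MC38 and higher in B16 were Gas6 (0.71 on the log2 scale in B16), Axl (0.85) and Vcam1 (1.76). Higher in MC38 and lower in B16 were Nr4a3 (-1.69), Fscn1 (-1.34), Lsp1 (-0.87), Syngr2 (-0.53) and Mfge8 (-0.51). These 8 are the opposite cases alone. Of the 44 MC38 calls tested in B16, 28 had the same sign there and 16 the opposite sign, whether or not they passed. Sparc, Mt1, Dcn and mt-Co1 were among those lower in both tumours without overlap. The MC38 and B16 tables were scaled separately, and the difference between the tumours was not tested.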

How the results depend on the processing

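No gene past the threshold changed sign under any alternative that tested it, but the count of 54 (21 higher, 33 lower) moved. It was 16 (7 and 9) with no filter on low values, where 29189 genes were tested, 223 (202 and 21) with the same FPKM total in each library, 2194 (1201 and 993) with array weights and 93 (49 and 44) with limma voom on recovered reads. It was 43 with a pseudocount of 0.1 FPKM (13 higher), 69 with 5 FPKM (35 higher), 43 without trend and robust (17 lower), 51 with a stricter filter, 60 with quantile normalization, 46 in a fit of the 6 compared libraries alone and 49 at a fold of at least 2. Leaving out 1 library gave 0 to 189 genes (0 to 131 higher, 0 to 107 lower). Without an OMV-SIRP-G library 43 of the 54 were still tested and none passed, with 978 to 1006 genes at an unadjusted p under 0.05 in limma. With the replicate block 8 genes passed (5 and 3), all among the 54. Same-numbered OMV-SIRP-G and OMV-SIRP libraries correlated at -0.00535, 0.0217 and 0.0105 in their deviations from the group means. Pairs with unlike numbers correlated at -0.0191 to 0.0174. PBS libraries did not enter these values. With 3 libraries a group, such correlations cannot show whether libraries of the same number share a batch. Chosen after seeing the data were 2 alternatives: leaving out OMV-SIRP replicate 2 and PBS replicate 3 together gave 644 (319 and 325), and FPKM per nuclear read without mitochondrial genes gave 32 (13 and 19). The causes of these changes were not tested. Depth limits the calls listed at 0 elsewhere, which rest on 6 to 90 reads.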
